A study of Mus musculus with 20 samples.

Results

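The extracellular matrix components and crosslinkers examined here are 46 genes for collagen chains, laminins and other basement membrane proteins, fibronectin and matricellular proteins, proteoglycans and elastic fibre proteins, and the enzymes and chaperone that mature and crosslink them. They were chosen by name and not picked by their measured values, but with earlier results of these data known. Of the 46 genes, 43 had a probe set that names a single gene and were measured among 18193 genes in all. Spp1 and Fbn1 were not analysed here, and Loxl2 was not used because both of its probe sets also name another gene. Each gene stands for its probe set with the highest mean over all arrays.

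The matrix is the network of secreted proteins on which cells sit and through which they signal. Fibrillar collagens such as type I give it tensile strength, type IV collagen and laminins build the sheet-like basement membrane under epithelia, and fibronectin and matricellular proteins connect matrix to cell receptors. Secreted collagen is stabilised by crosslinking enzymes of the lysyl oxidase and transglutaminase families. TGFβ1, whose receptors phosphorylate SMAD transcription factors, is a known inducer of matrix genes in fibroblasts and in hepatic stellate cells, the main matrix producers of the fibrotic liver.

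Hepa1-6 is an epithelial hepatoma line from a liver tumour of a C57L mouse, so all values are those of 1 established cell line. Cells spent 4 h in medium without growth factors and then received 1 ng/ml TGFβ1 for 0, 1, 3, 6 or 10 h, or no TGFβ1 for the same times. These 10 groups hold 2 arrays each, from biological duplicates, and the labels call the treated and untreated 0 h samples equivalent. The comparisons ask which matrix transcripts differ between treated and untreated cells, when they begin to differ, and what the untreated cells do in the meantime.

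The values are log2 expression values made by RMA, a method that corrects background and normalises arrays to each other, so a difference is measured against the rest of the array's transcripts. The array medians lay between 5.15 and 5.21, duplicates correlated at 0.9958 to 0.9971, and the number of arrays limits the precision. The response to the cytokine was visible in all 4 measured genes of a short check list: Ccn2, a matricellular protein and SMAD target, was higher by 2.64, 3.19, 2.97 and 2.10 log2 units at 1, 3, 6 and 10 h. Of 8 measured hepatocyte and hepatoma markers, 6 lay above all array medians, among them Afp at 12.78 and Alb at 12.01. Of 14 stellate cell and fibroblast markers, 4 did (Dcn, Des, Pdgfra and Pdgfrb), while Acta2, Tagln, Lrat and Lhx2, among others, did not. Of 8 endothelial markers, 1 did (Kdr), of 8 macrophage markers 5 did, and of 5 cholangiocyte markers 4 did. Of all 18193 genes 11326 did, so such counts do not by themselves show which cell types were present. In bulk arrays, more cells that express a gene and more RNA per cell cannot be told apart.

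The levels were set against the array medians. Of 10 basement membrane glycoproteins, 7 lay above all array medians, against 7 of 12 collagen chains, 4 of 7 fibronectin and matricellular genes, 4 of 8 proteoglycan and elastic fibre genes, and 3 of 6 crosslinking genes. Of the chains of fibrillar collagens, Col1a1 (4.83), Col3a1 and Col5a2 (4.37) lay below them and Col1a2 (5.24) and Col5a1 (5.62) just above. The basement membrane genes Lama5, Lamb1, Lamb2, Lamb3, Lamc1, Nid1 and Hspg2 had means between 7.73 and 10.06. Probe sets differ in their response, so these levels place a gene on the array and do not rank 1 gene against another. In all, 25 members lay above the array medians and 18 did not, beside 11326 of all 18193 genes above them. The medians are over all probe sets of an array, while each gene stands for its brightest one.

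**Figure D1:**
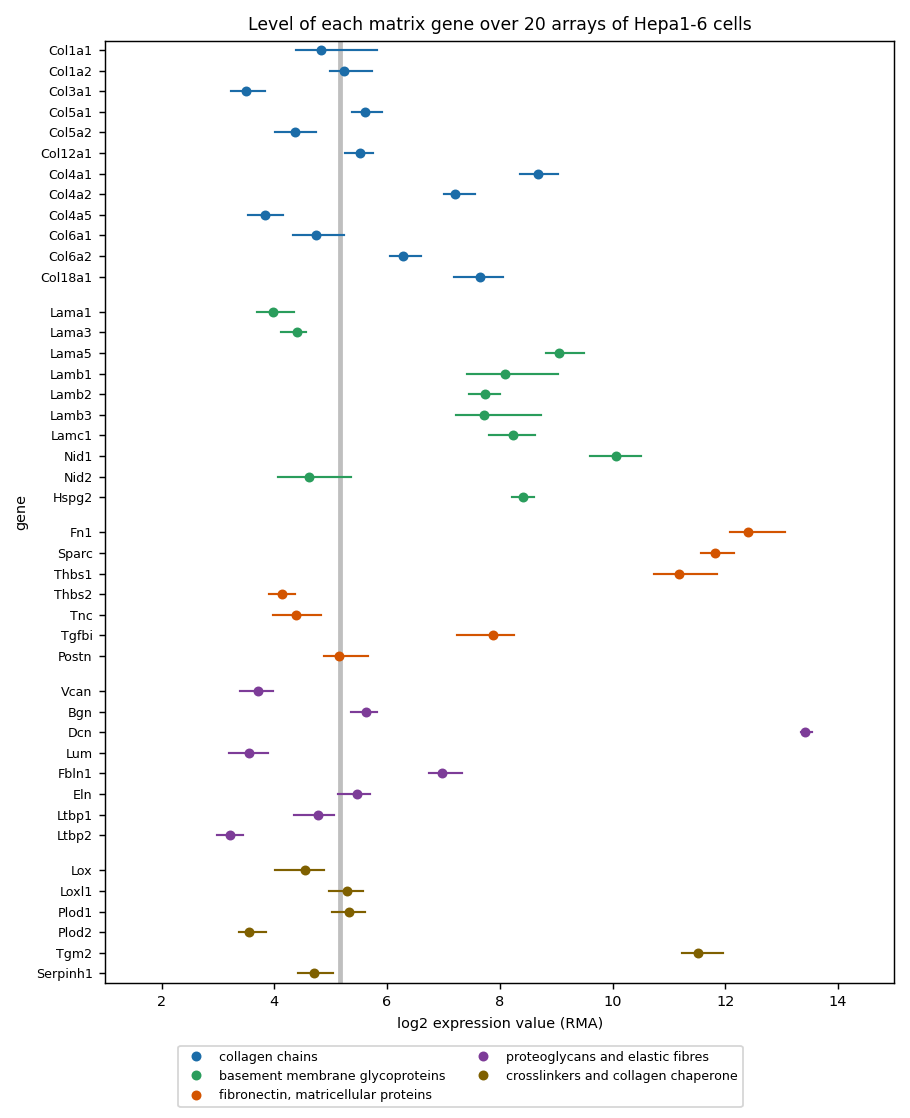
Level of each measured matrix gene on the log2 scale (horizontal axis), by gene and group of genes. Points are means over the 20 arrays, lines run from the lowest to the highest array, and the grey band marks the array medians, 5.15 to 5.21; 25 genes lie above it.

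Treated cells were set against untreated cells of matching time, and a gene was called where limma's adjusted p over all genes was under 0.05. After 1 h, 1 of the 43 members rose and 0 fell, while 2.24% of all genes were called (1.91% higher and 0.324% lower). After 3 h, 7 members rose and 2 fell, or 20.9% of members, beside 15.3% of all genes (6.73% higher and 8.55% lower). After 6 h, 7 rose and 1 fell, or 18.6%, beside 15.7% (7.77% higher and 7.96% lower). After 10 h, 8 rose and 1 fell, or 20.9%, beside 9.14% (5.07% higher and 4.06% lower).

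Of the 14 members called at 1 time or more, 12 lay above the array medians. Among genes above the array medians, 3.51%, 23.4%, 24.1% and 14.1% were called at 1, 3, 6 and 10 h, beside 4%, 28%, 28% and 32% of the 25 members above them. The members' median difference was -0.03, -0.01, 0.03 and -0.01 at the 4 times, beside -0.01, -0.02, -0.03 and -0.00 for all genes. Of the 14 genes, 10 rose at 1 time or more, 4 fell at 1 time, and none did both. Col1a1, Lamb1, Lamb3, Fn1 and Thbs1 rose at 3, 6 and 10 h.

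At 0 h, 0 members and 0 of all genes were called by limma, with 2 members at an unadjusted p under 0.05. The effect of TGFβ1 was also compared between times. From 1 to 3 h it grew for 2 members and fell for 1 (6.41% of all genes, 2.47% higher and 3.94% lower), and from 3 to 6 h it grew for 2 (4.55%, 2.86% higher and 1.69% lower). From 6 to 10 h it grew for 1 and fell for 3 (2.44%, 1.11% higher and 1.33% lower), and from 1 to 10 h it grew for 6 (4.02%, 1.62% higher and 2.4% lower).

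**Figure D2:**
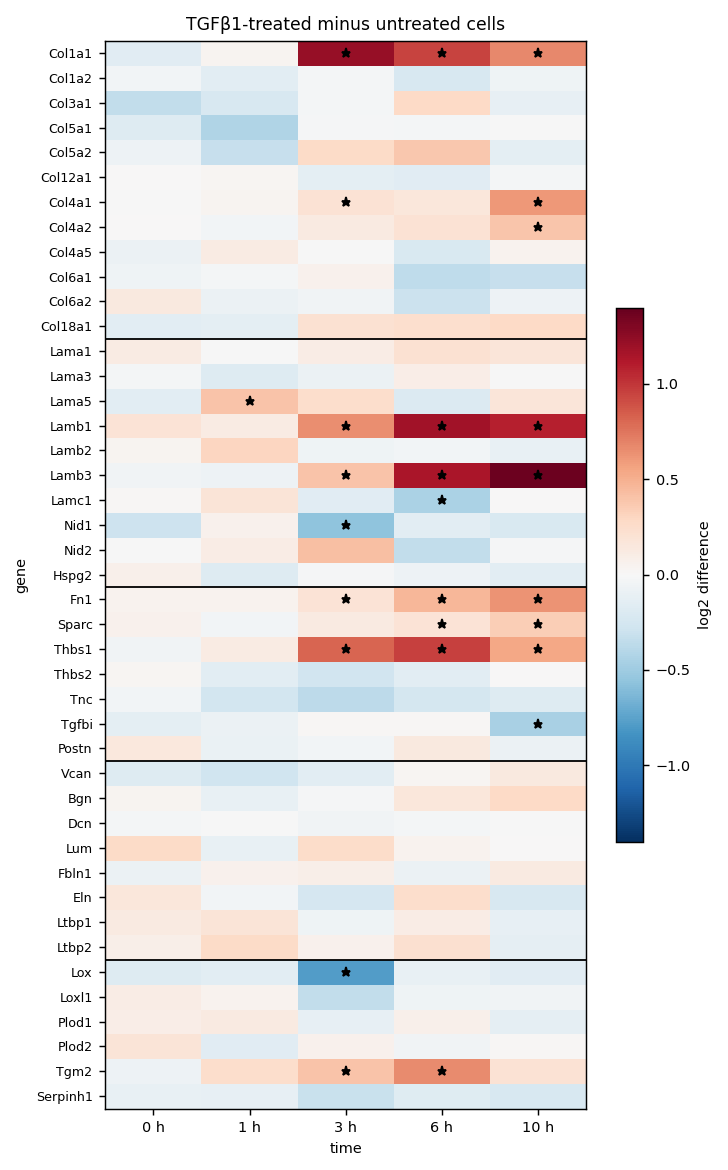
Log2 difference, TGFβ1-treated minus untreated cells of the same time (colour), for 43 matrix genes (vertical axis) at 0, 1, 3, 6 and 10 h (horizontal axis). Stars mark an adjusted p under 0.05; black lines separate collagens, basement membrane glycoproteins, fibronectin and matricellular genes, proteoglycans and elastic fibre genes, and crosslinkers. Red cells gather in Col1a1, Lamb1, Lamb3, Fn1, Thbs1 and Tgm2, and no proteoglycan or elastic fibre gene is starred in the probe set used.

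Among the 12 collagen chains, Col1a1, Col4a1 and Col4a2 rose and the other 9 were called at no time. Col1a1, on chromosome 11, encodes the main chain of type I collagen, the most abundant fibrillar collagen of tissues. At 3 h Col1a1 was at 5.76 and 5.83 in treated cells, against 4.74 and 4.42 in untreated cells. At 6 h it was at 5.38 and 5.70 in treated cells, against 4.41 and 4.79 in untreated cells. At 10 h the values were 5.55 and 4.90 in treated cells, against 4.61 and 4.48 in untreated cells. Treated arrays lay above untreated ones at each of these times, and the duplicates drew apart at 10 h. The difference was 1.22 ± 0.18 log2 units at 3 h (SE; 2.32-fold; adjusted p = 4.476e-05), 0.94 ± 0.18 at 6 h (1.92-fold; adjusted p = 0.0007907), and after 10 h 0.68 ± 0.18 (adjusted p = 0.02124). Without replicate 1 of the treated 10 h cells the last was 0.35 and was lost, and it was also lost without replicate 1 (0.74) or replicate 2 (0.61) of the untreated 10 h cells.

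Col1a1 was not called at 1 h, when it was at 4.54 and 4.54 in treated cells and 4.54 and 4.46 in untreated cells (0.04 ± 0.18). The growth of the difference between 1 and 3 h was itself past the threshold, at 1.18 ± 0.26 (adjusted p = 0.005853). The partner chain of the same protein, Col1a2, had differences of -0.15, -0.03, -0.23 and -0.06 at 1, 3, 6 and 10 h, none called. The second Col1a1 probe set, with a mean of 3.84, gave 0.73, 0.38 and 0.49 at 3, 6 and 10 h, called at 3 h only (adjusted p = 0.001888, 0.1215 and 0.06334). Col1a1 also stands in the stellate cell and fibroblast list with 3 other members, Col3a1, Dcn and Lum. Without these, the mean level of its 10 other genes ran from 4.58 to 4.801 in treated arrays and from 4.75 to 4.91 in untreated arrays between 1 and 10 h. Of the 10, the growth factor receptor gene Pdgfra fell, with log2 differences of -0.41, -0.99 and -0.91 at 3, 6 and 10 h, and Pdgfrb rose by 0.63 at 6 h. The part of such cells in the Col1a1 result was not tested.

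Col4a1 and Col4a2 encode the chains of the ubiquitous type IV collagen network of basement membranes, and both are on chromosome 8. At 10 h Col4a1 was at 8.96 and 9.03 in treated cells, against 8.36 and 8.41 in untreated cells. Col4a2 was at 7.56 and 7.40 in treated cells, against 7.11 and 7.07 in untreated cells. Treated arrays were above untreated ones for both genes, by 0.61 ± 0.06 for Col4a1 (1.53-fold; adjusted p = 7.165e-07) and 0.39 ± 0.09 for Col4a2 (1.31-fold; adjusted p = 0.006242). The Col4a2 call was lost without replicate 1 of the treated cells (0.32) or replicate 2 of the untreated cells (0.37).

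For Col4a1 the 10 h effect was 0.45 ± 0.09 above that at 6 h (adjusted p = 0.005247; 0.28 and adjusted p = 0.1194 with the mean of its probe sets). Against 0 h of the same arm, Col4a1 at 10 h rose by 0.34 in treated cells and fell by 0.28 in untreated cells. At 3 h Col4a1 was at 8.87 and 8.80 in treated cells and at 8.62 and 8.64 in untreated cells, a difference of 0.21 ± 0.06 (adjusted p = 0.02712). That call was lost without replicate 1 of the treated cells (0.17) and without replicate 1 (0.20) or replicate 2 (0.22) of the untreated cells or after centring of arrays on their medians (0.20).

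The RefSeq annotation of GRCm38.p6 puts a start of Col4a1 at 11312826 on the minus strand and a start of Col4a2 at 11312805 on the plus strand, 21 bases apart. Each start lies downstream of the other, so the transcripts from these starts overlap in the stretch that joins them. By this annotation that stretch is thus transcribed sequence of both genes. Whether it is also part of a promoter was not tested. The stretch is shown because both genes were called higher at 10 h. It lies at chr8:11312805-11312826 and is written on the plus strand.
Col4a1 and Col4a2: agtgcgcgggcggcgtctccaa
This stretch holds no match to the SMAD motif CAGAC on either strand, which says only that these letters are not in it. The longer Col4a2 window holds 1 match outside the stretch, on the plus strand with its first base at -228 from the Col4a2 start. The search windows run from 250 bases before to 50 bases after an annotated start, and those of Col4a1 and Col4a2 share 78 bases.

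The other 9 collagen chains (Col1a2, Col3a1, Col4a5, Col5a1, Col5a2, Col6a1, Col6a2, Col12a1 and Col18a1) had differences between -0.42 and 0.37 in the probe sets used. Col18a1, whose product is the source of endostatin in basement membranes, had 0.21, 0.23 and 0.28 ± 0.10 at 3, 6 and 10 h without passing the test (adjusted p = 0.1928, 0.1364 and 0.09672). At 10 h it was at 8.06 and 7.90 in treated cells and at 7.63 and 7.78 in untreated cells, so the arrays did not overlap. Its second probe set, with a mean of 7.34, was at 7.72 and 7.76 in treated cells and at 7.26 and 7.33 in untreated cells at 6 h, and was called there (0.45 ± 0.08; adjusted p = 0.0008401). Against its own 0 h cells, Col18a1 in treated cells rose in the probe set used by 0.64 at 6 h and by 0.61 at 10 h. In untreated cells its mean was 7.51 at 0 h, 7.78 at 6 h and 7.70 at 10 h, a rise that was not called. The treated 0 h arrays were at 7.19 and 7.55, and the untreated ones at 7.49 and 7.54.

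Laminins are trimers of an α, a β and a γ chain, and the basement membrane group was led by β chains. Lamb3, on chromosome 1, is the β chain of laminin-332, the laminin with which epithelia anchor to their basement membrane. At 6 h Lamb3 was at 8.56 and 8.62 in treated cells, against 7.30 and 7.60 in untreated cells. At 10 h Lamb3 was at 8.72 and 8.65 in treated cells, against 7.23 and 7.40 in untreated cells. The arrays were far apart at both times, with a difference of 1.14 ± 0.11 at 6 h (2.21-fold; adjusted p = 1.491e-07) and 1.37 ± 0.11 at 10 h (2.59-fold; adjusted p = 3.124e-08), the largest among the members at 10 h. At 3 h it was at 8.02 and 7.74 in treated cells and at 7.39 and 7.57 in untreated cells, a difference of 0.40 ± 0.11 (adjusted p = 0.01634). The 3 h call was lost without replicate 1 of the treated cells (0.26) or replicate 1 of the untreated cells (0.31).

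The Lamb3 effect grew by 0.74 ± 0.16 between 3 and 6 h (adjusted p = 0.007341; 0.05062 without replicate 2 of the treated 3 h cells, where the growth was 0.61). Lama3, the α chain of laminin-332, lay below the array medians at 4.40 and was called at no time. The γ chain of that trimer is no member of the set.

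Lamb1, on chromosome 12, is the β chain of several laminins that are found in many basement membranes. At 3 h Lamb1 was at 8.31 and 8.49 in treated cells, against 7.74 and 7.76 in untreated cells. At 6 h it was at 8.64 and 8.69 in treated cells, against 7.56 and 7.42 in untreated cells. At 10 h Lamb1 was at 9.03 and 8.72 in treated cells, against 7.76 and 7.82 in untreated cells. No treated array overlapped an untreated one from 3 h on, and the differences were 0.65 ± 0.13 (adjusted p = 0.001029), 1.18 ± 0.13 (2.26-fold; adjusted p = 9.264e-07) and 1.09 ± 0.13 (2.12-fold; adjusted p = 7.624e-06). At 6 h the untreated cells were also 0.41 below their own 0 h level, a call that was lost without replicate 2 of the untreated 0 h cells (0.22 below) or replicate 2 of the untreated 6 h cells (0.34 below).

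The second Lamb1 probe set, with a mean of 7.22, gave 0.46, 1.19 and 1.36 at 3, 6 and 10 h, all called. The third gave 0.28, 0.70 and 1.05, called at 6 and 10 h, and the dimmest gave 0.27, 0.13 and 0.11, not called. Lamb2, another β chain, had differences between -0.11 and 0.30, none called.

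The promoter stretches of the β chains with the largest differences are shown because CAGAC, the core of the SMAD binding element, was searched in all annotated promoters. Sequences and starts come from RefSeq for GRCm38.p6. Both stretches are on the plus strand, and capitals mark CAGAC or its reverse complement GTCTG. For Lamb3 the stretch is the 250 bases before an annotated start at position 193301994 (chr1:193301744-193301993); the annotated gene begins farther upstream, at 193294353. For Lamb1 it is chr12:31265043-31265145, the 103 bases before its first annotated start.
Lamb3: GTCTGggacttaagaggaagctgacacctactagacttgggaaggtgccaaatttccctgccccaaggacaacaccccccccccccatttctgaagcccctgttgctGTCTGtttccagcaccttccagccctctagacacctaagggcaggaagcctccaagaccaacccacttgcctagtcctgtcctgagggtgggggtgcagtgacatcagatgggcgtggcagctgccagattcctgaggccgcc
Lamb1: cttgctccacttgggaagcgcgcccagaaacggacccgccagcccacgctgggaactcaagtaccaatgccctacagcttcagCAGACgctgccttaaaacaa
The Lamb3 stretch holds 2 matches, whose first bases are at -250 and -143 counted from that start, and the Lamb1 stretch holds 1. Of the 43 measured members, 27 were found in the promoter table, with 34 windows, and 24 of these windows (70.59%) hold CAGAC on either strand, as do 49.59% of all 32851 RefSeq windows. Windows of called members hold it in 7 of 9 cases; these belong to 8 of the 14 called members, 2 of them to Lamb3. Col1a1, Thbs1, Fn1 and Tgm2 are among the called members that were not found in the table. The AP-1 motif TGANTCA was in 1 of 34 windows of members (2.941%) and 7.808% of all windows, and TATAAA was in 6 of 34 (17.65%) and 13.62%. Among the 9 windows of called members, 0 held TGANTCA and 0 held TATAAA. A match describes the letters and is no evidence of binding.

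Lama5 was the only member called at 1 h in the probe sets used. It is on chromosome 2 and encodes a laminin α chain of mature basement membranes. At 1 h Lama5 was at 9.35 and 9.20 in treated cells, against 8.83 and 8.93 in untreated cells. The arrays did not overlap, and the difference was 0.40 ± 0.10 (1.32-fold; adjusted p = 0.03652). The call was lost when any of the 4 arrays was left out: the difference was 0.32 or 0.47 without replicate 1 or 2 of the treated cells, and 0.34 or 0.45 without replicate 1 or 2 of the untreated cells. With further quantile normalization it was 0.35 and with the mean of its probe sets 0.28, not called, and its second probe set gave 0.36 (adjusted p = 0.2969). At 3, 6 and 10 h the Lama5 differences were 0.24, -0.19 and 0.17, none called.

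Nid1 and Lamc1 were called lower, each at 1 time. Nid1, on chromosome 13, encodes nidogen, the linker between laminin and type IV collagen. At 3 h Nid1 was at 9.59 and 9.71 in treated cells, against 10.39 and 10.05 in untreated cells. The treated arrays lay below, by 0.57 ± 0.10 (log2 difference -0.57; 1.48-fold; adjusted p = 0.0003956). Its second probe set gave 0.049 at 3 h (adjusted p = 0.9086) and its dimmest -0.38 (adjusted p = 0.3797), and the mean of its probe sets gave -0.30, not called.

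Lamc1, on chromosome 1, encodes the γ chain shared by many laminins. At 6 h Lamc1 was at 7.81 and 7.83 in treated cells, against 8.32 and 8.19 in untreated cells. The treated arrays lay below, with a log2 difference of -0.44 ± 0.11 (1.35-fold; adjusted p = 0.008099), which was lost without replicate 1 of the treated cells (-0.43) or replicate 1 of the untreated cells (-0.37). Its second probe set gave 0.066 at 6 h (adjusted p = 0.8917), and the mean of its probe sets gave -0.19, not called. For both genes the fall was called in 1 probe set only.

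The remaining basement membrane members (Lama1, Lama3, Lamb2, Nid2 and Hspg2) had differences between -0.34 and 0.42, none called. Hspg2, which encodes the large heparan sulfate proteoglycan perlecan, had a mean of 8.41 and differences of -0.18, -0.02, -0.07 and -0.15.

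**Figure D3:**
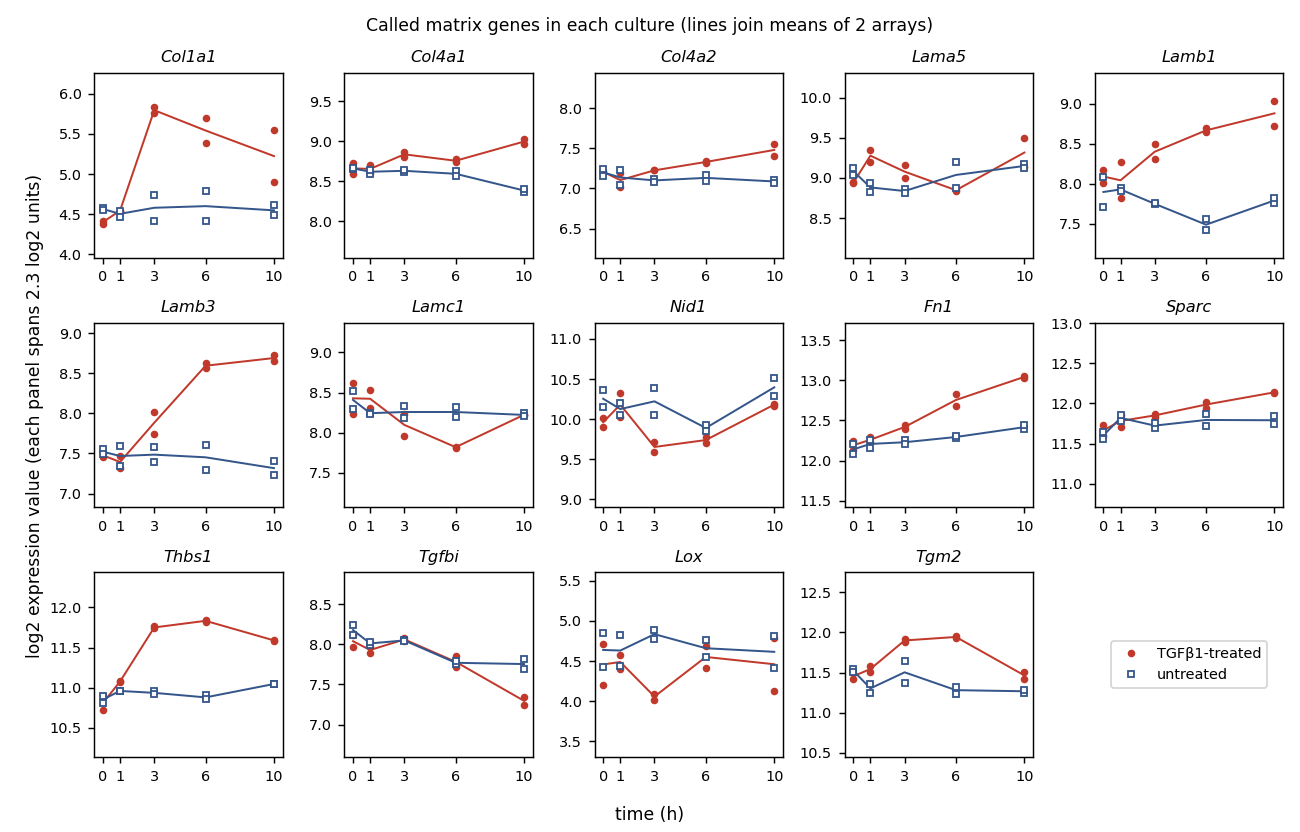
Log2 expression value (vertical axes, 2.3 log2 units in each panel) against time in h (horizontal axes) for the 14 members called at 1 time or more. Filled circles are TGFβ1-treated arrays, open squares untreated arrays, and lines join the means of 2 arrays. From 3 h on the treated points lie above the untreated ones in Col1a1, Col4a1, Col4a2, Lamb1, Lamb3, Fn1, Sparc, Thbs1 and Tgm2, and in Tgfbi they lie below at 10 h.

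In the fibronectin and matricellular group Thbs1, Fn1 and Sparc rose and Tgfbi fell. Thbs1, on chromosome 2, encodes thrombospondin-1, a matricellular protein that can activate latent TGFβ. At 3 h Thbs1 was at 11.76 and 11.74 in treated cells, against 10.96 and 10.92 in untreated cells. At 6 h Thbs1 was at 11.82 and 11.85 in treated cells, against 10.90 and 10.85 in untreated cells. At 10 h Thbs1 was at 11.60 and 11.58 in treated cells, against 11.05 and 11.05 in untreated cells. Duplicates were close and the groups far apart, with differences of 0.82 ± 0.05 (1.76-fold; adjusted p = 5.024e-11), 0.95 ± 0.05 (1.94-fold; adjusted p = 5.675e-12) and 0.54 ± 0.05 (1.46-fold; adjusted p = 9.362e-08).

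The Thbs1 effect grew by 0.70 ± 0.07 between 1 and 3 h (adjusted p = 5.735e-07) and shrank between 6 and 10 h, by a log2 difference of -0.41 ± 0.07 (adjusted p = 0.001045). At 1 h Thbs1 was at 11.07 and 11.08 in treated cells and at 10.96 and 10.96 in untreated cells, 0.12 ± 0.05 apart and not called (adjusted p = 0.3629). Its second probe set gave 0.93, 1.13 and 0.65 at 3, 6 and 10 h, all called.

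Fn1, on chromosome 1, encodes fibronectin, which hepatocytes secrete into plasma and which cells assemble into fibrils. At 3 h Fn1 was at 12.39 and 12.44 in treated cells, against 12.25 and 12.20 in untreated cells. At 6 h Fn1 was at 12.68 and 12.83 in treated cells, against 12.28 and 12.31 in untreated cells. At 10 h Fn1 was at 13.05 and 13.03 in treated cells, against 12.39 and 12.44 in untreated cells. The gap widened while untreated cells also crept up. The differences were 0.19 ± 0.05 (adjusted p = 0.01646), 0.46 ± 0.05 (1.38-fold; adjusted p = 1.634e-06) and 0.63 ± 0.05 (1.54-fold; adjusted p = 5.607e-08). The 3 h call was lost without replicate 2 of the treated cells (0.17) or replicate 2 of the untreated cells (0.17), and the step between 3 and 6 h (0.27 ± 0.08; adjusted p = 0.04183) was lost without any of 7 of the 8 arrays compared, with values from 0.20 to 0.34.

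The other Fn1 probe set, with a mean of 7.86, had another time course. At 1 h this probe set was at 8.09 and 8.18 in treated cells, against 7.18 and 7.25 in untreated cells. At 3 h it was at 8.47 and 8.87 in treated cells, against 7.40 and 7.48 in untreated cells. At 10 h the values were 8.22 and 8.44 in treated cells, against 7.85 and 7.95 in untreated cells. Treated arrays were higher from 1 h on, by 0.92, 1.23 and 1.202 ± 0.12 at 1, 3 and 6 h (adjusted p = 5.354e-05, 3.12e-07 and 4.809e-07) and by 0.43 ± 0.12 at 10 h (adjusted p = 0.0369), in a fit of every probe set. The difference was thus largest at 3 and 6 h in this probe set and at 10 h in the brighter one. Which transcripts of Fn1 each probe set detects was not analysed here.

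Sparc, on chromosome 11, encodes osteonectin, a collagen-binding glycoprotein. At 10 h Sparc was at 12.15 and 12.13 in treated cells, against 11.74 and 11.84 in untreated cells. At 6 h it was at 11.95 and 12.02 in treated cells, against 11.72 and 11.87 in untreated cells. The arrays did not overlap at either time, and the differences were 0.35 ± 0.06 at 10 h (1.27-fold; adjusted p = 0.0003973) and 0.19 ± 0.06 at 6 h (adjusted p = 0.02756). The 6 h call was lost without replicate 2 of the treated cells (0.16) or replicate 1 of the untreated cells (0.12); the second probe set gave 0.37 at 6 h and 0.34 at 10 h, both called. The mean of its probe sets gave 0.20 at 10 h, not called.

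Tgfbi, on chromosome 13, encodes a collagen-binding matrix protein named for its induction by TGFβ in another cell line. In these cells it was lower with TGFβ1 at 10 h, at 7.34 and 7.25 in treated cells, against 7.69 and 7.82 in untreated cells. The arrays did not overlap, and the log2 difference was -0.46 ± 0.08 (1.37-fold; adjusted p = 0.0004763). At 3 and 6 h the difference was 0.01 ± 0.08 each time. All 4 Tgfbi probe sets were lower at 10 h, by log2 differences from -0.46 to -0.35, with 2 of them called. Against 0 h of the same arm, Tgfbi at 10 h fell by 0.74 log2 units in treated cells and fell by 0.42 in untreated cells.

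Thbs2, Tnc and Postn, the other matricellular members, had differences between -0.37 and 0.14, none called, and lay below the highest array median.

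**Figure D4:**
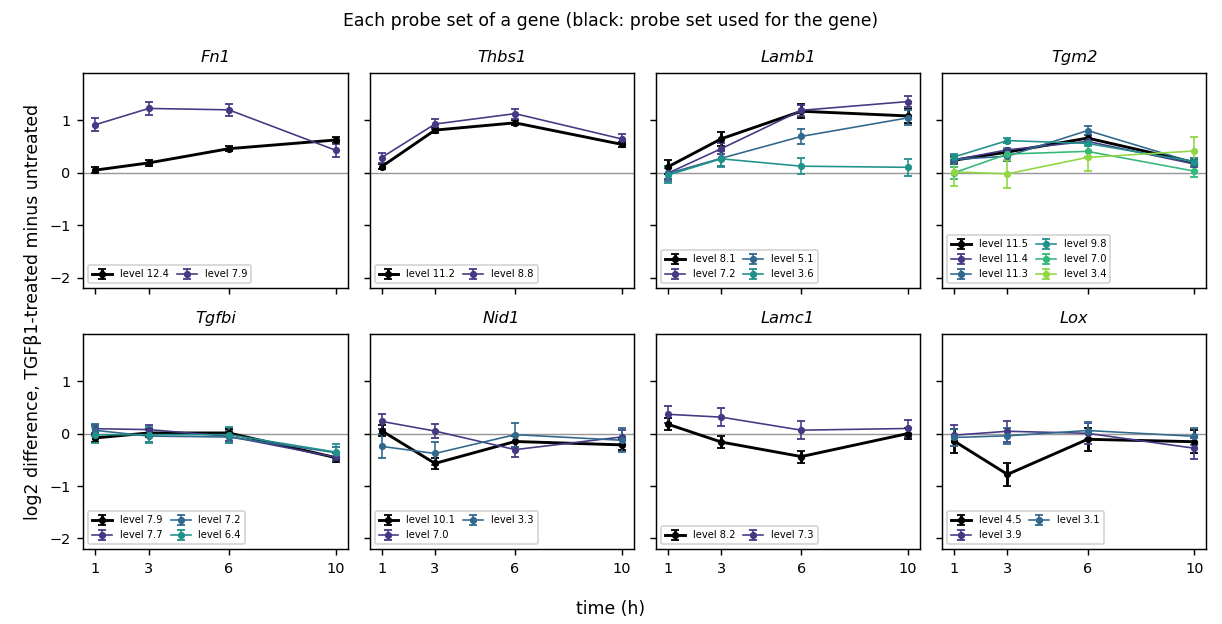
Log2 difference, TGFβ1-treated minus untreated cells (vertical axis), against time in h (horizontal axis) for each probe set of 8 members, with bars of 1 standard error. The black line is the probe set used for the gene and the legends give each probe set's mean log2 level; probe sets agree in shape for Thbs1 and Tgfbi, differ in timing for Fn1, and the falls of Nid1, Lamc1 and Lox are called in the black line only.

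In the proteoglycan and elastic fibre group, 0 of 8 measured members were called by limma at any time in the probe sets used, with 1, 0, 0 and 1 at an unadjusted p under 0.05 at 1, 3, 6 and 10 h. Dcn encodes decorin, a small proteoglycan that binds collagen fibrils and TGFβ. It was bright, between 13.34 and 13.54 on all 20 arrays, with differences of -0.01, -0.05, -0.02 and -0.01 ± 0.05. Another Dcn probe set, with a mean of 5.93, was lower at 1 h (-0.76 ± 0.18; adjusted p = 0.0299). Vcan, Bgn, Lum, Fbln1, Eln, Ltbp1 and Ltbp2 had differences between -0.28 and 0.28 in the probe sets used. The second Ltbp1 probe set, dim with a mean of 3.37, was at 3.97 and 4.12 in treated cells and at 3.12 and 3.26 in untreated cells at 3 h, and at 4.02 and 3.83 in treated cells and at 3.00 and 3.09 in untreated cells at 6 h. It was called higher at both times, by 0.85 ± 0.16 (adjusted p = 0.0007644) and 0.88 ± 0.16 (adjusted p = 0.00056). Of these, Bgn (biglycan), Fbln1 (fibulin-1) and Eln (elastin) lay above the array medians, and Vcan (versican), Lum (lumican) and the latent TGFβ binding proteins Ltbp1 and Ltbp2 did not.

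Among the 6 crosslinkers and chaperones, Tgm2 rose and Lox was called lower once. Tgm2, on chromosome 2, encodes tissue transglutaminase, which crosslinks fibronectin and other matrix proteins. At 3 h Tgm2 was at 11.88 and 11.92 in treated cells, against 11.64 and 11.37 in untreated cells. At 6 h Tgm2 was at 11.96 and 11.93 in treated cells, against 11.32 and 11.24 in untreated cells. Treated arrays lay above untreated ones, by 0.40 ± 0.06 at 3 h (1.32-fold; adjusted p = 0.0001211) and 0.66 ± 0.06 at 6 h (1.58-fold; adjusted p = 1.564e-07). At 10 h the values were 11.50 and 11.43 in treated cells and 11.25 and 11.29 in untreated cells, 0.20 ± 0.06 apart and not called (adjusted p = 0.06283).

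The decline of the Tgm2 effect between 6 and 10 h was past the threshold, with a log2 difference of -0.47 ± 0.09 (adjusted p = 0.005585; 0.07962 without a variance trend). Its second probe set gave 0.25, 0.44, 0.60 and 0.17 at 1, 3, 6 and 10 h, called at each time, and 5 of its 6 probe sets were called at 3 and 6 h. In the probe set used, the 1 h difference was 0.24 ± 0.06 (adjusted p = 0.05811).

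Lox encodes lysyl oxidase, which starts the crosslinking of collagen and elastin. It lay below the array medians at 4.54. At 3 h Lox was at 4.10 and 4.02 in treated cells, against 4.78 and 4.89 in untreated cells. The treated arrays lay below, with a log2 difference of -0.78 ± 0.22 (adjusted p = 0.01665), and the call was lost when any of the 4 arrays was left out (-0.82 and -0.74 without replicate 1 or 2 of the treated cells, -0.83 and -0.72 without replicate 1 or 2 of the untreated cells). Its other probe sets gave 0.045 and -0.042 at 3 h, and the mean of its probe sets gave -0.26, not called. Loxl1, the lysyl hydroxylases Plod1 and Plod2, and the collagen chaperone Serpinh1 had differences between -0.34 and 0.13 in the probe sets used, none called. The second Loxl1 probe set, with a mean of 4.22, was at 4.69 and 4.58 in treated cells and at 3.82 and 4.07 in untreated cells at 6 h (0.69 ± 0.16; adjusted p = 0.006574). Of the 29 members called at no time in the probe sets used, 4 were called in another one: Dcn, Ltbp1, Col18a1 and Loxl1.

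The untreated cells also changed over the 10 h without growth factors, so a matrix gene can differ from 0 h without TGFβ1. Against untreated 0 h cells, limma called 0 members at 1 h, with 5 at an unadjusted p under 0.05 and 0.187% of all genes called (0.104% higher and 0.0824% lower). At 3 h 0 rose and 1 fell (8.16% of all genes, 4.95% higher and 3.21% lower), at 6 h 2 rose and 5 fell (20.7%, 10.4% higher and 10.3% lower), and at 10 h 6 rose and 4 fell (26.1%, 13.3% higher and 12.8% lower). Of these 18 calls, 6 held under every alternative tried: Tgfbi fell by 0.41 at 6 h and by 0.42 at 10 h, and at 10 h Col4a1 fell by 0.28 and Tgm2 fell by 0.26, while Fn1 rose by 0.28 and Postn, which encodes periostin, rose by 0.64. The other 12 were lost under at least 1, and the counts without 1 array ran from 0 to 1 at 3 h, from 1 to 5 at 6 h and from 5 to 8 at 10 h. At 3 h the count was 0 without replicate 2 of the untreated 3 h cells or without either untreated 0 h replicate. At 6 h it was 1 without replicate 2 of the untreated 6 h cells, 3 without replicate 1 at 0 h and 4 without replicate 2 at 0 h, and at 10 h it was 5 without replicate 1 at 0 h.

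In treated cells, set against treated 0 h cells, 1 member rose at 1 h (3.51% of all genes were called, 2.45% higher and 1.06% lower), while at 3 h 7 rose and 2 fell (15.8%, 7.55% higher and 8.28% lower). By 6 h 9 rose and 3 fell (24%, 11.2% higher and 12.8% lower), and at 10 h 12 rose and 2 fell (28%, 14.5% higher and 13.6% lower). Of these 36 calls, 21 held under every alternative tried and 15 were lost under at least 1. Changes of at least 1 log2 unit were those of Col1a1 at 3 h (1.39) and 6 h (1.14), Lamb3 at 6 h (1.12) and 10 h (1.21), and Thbs1 at 6 h (1.02). The 1 h call was Thbs1 (0.27), lost without replicate 1 of the treated 0 h cells (0.19). Without that array, or without replicate 2 of the treated 3 h cells, 5 members were called at 3 h. Comparisons with the same 0 h arrays share them, so calls at different times are not independent.

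**Figure D5:**
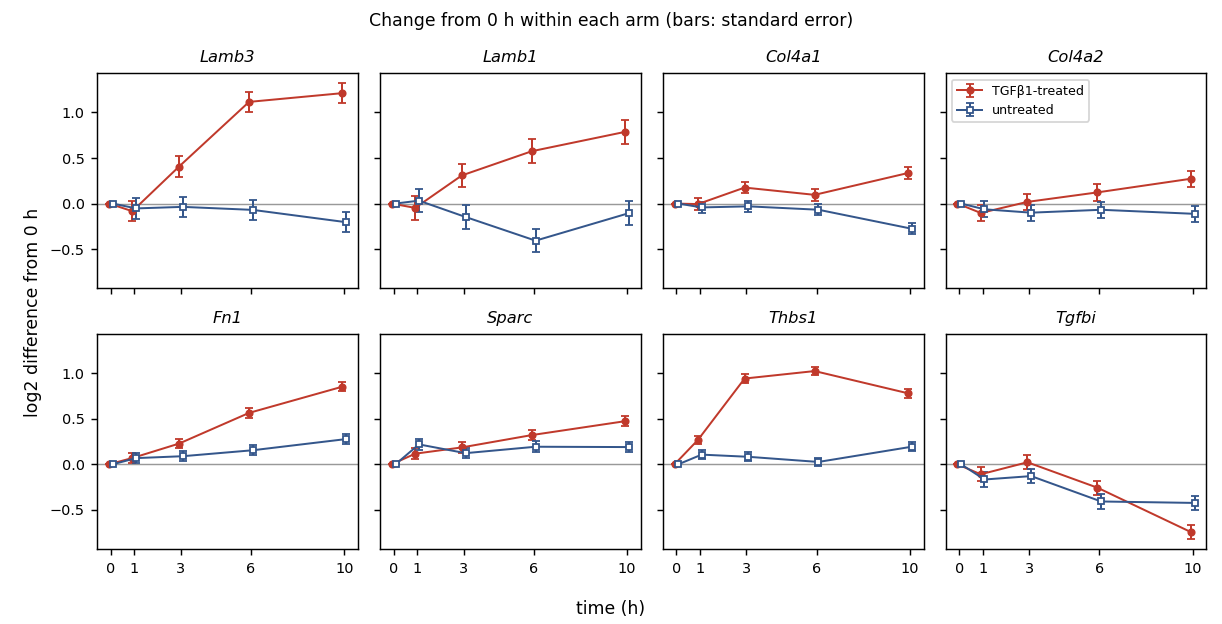
Log2 difference from 0 h of the same arm (vertical axis) against time in h (horizontal axis) for 8 members, TGFβ1-treated (filled circles) and untreated (open squares) cells, with bars of 1 standard error. Lamb3 and Thbs1 reach changes of 1.21 (10 h) and 1.02 (6 h) in treated cells, Col4a1 moves up in treated and down in untreated cells by 10 h, and Tgfbi falls in both.

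Genes outside the set that process, form or degrade matrix were counted in the same way. Of 25 measured genes for collagen maturation and secretion, 3 rose and 1 fell at 3 h, 3 rose and 1 fell at 6 h, and 3 rose and 2 fell at 10 h. These are 16%, 16% and 20% of the list, beside 15.3%, 15.7% and 9.14% of all genes. Pcolce2, an enhancer of procollagen C-proteinase, rose by 1.26, 1.36 and 1.04 at 3, 6 and 10 h, and the collagen galactosyltransferase Colgalt1 rose by 0.31, 0.52 and 0.53. Bmp1, a procollagen C-proteinase, rose by 0.41, 0.48 and 0.64 at 3, 6 and 10 h. The chaperone Hsp90b1 fell by 0.26 at 3 h, and P4ha1, a prolyl hydroxylase subunit, fell by 0.32 at 6 h and 0.23 at 10 h.

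Of 62 other matrix genes, 1 rose at 1 h, 5 rose and 1 fell at 3 h, 5 rose and 2 fell at 6 h, and 5 rose and 1 fell at 10 h. These shares (1.61%, 9.68%, 11.3% and 9.68%) lay below those of all genes at 1, 3 and 6 h (2.24%, 15.3% and 15.7%) and near that at 10 h (9.14%). Loxl4, a lysyl oxidase relative, rose by 0.50 at 1 h and 0.27 at 3 h. Ltbp3, a latent TGFβ binding protein, rose by 0.49, 0.65 and 0.54 at 3, 6 and 10 h. Among collagens outside the set, Col27a1 rose by 0.45 at 3 h, and Col8a1 rose by 0.74, 1.53 and 0.78 at 3, 6 and 10 h. Col7a1 rose by 0.45 and 0.62 at 6 and 10 h, while Col14a1 fell by 0.39, 0.59 and 0.65 at 3, 6 and 10 h.

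Of 19 matrix-degrading enzymes, 1 rose at 1 h, 4 rose and 1 fell at 3 h, 4 rose and 2 fell at 6 h, and 4 rose and 0 fell at 10 h, or 5.26%, 26.3%, 31.6% and 21.1% beside the same shares of all genes. The secreted serine protease Htra1 rose by 0.75, 2.34, 2.65 and 1.45 at 1, 3, 6 and 10 h. Among matrix metalloproteinases, Mmp24 rose by 1.78 at 3 h and 1.04 at 6 h, Mmp14 rose by 0.22, 0.29 and 0.34 at 3, 6 and 10 h, and Mmp11 rose by 0.65, 0.88 and 1.12 at 3, 6 and 10 h. The called falls were those of Mmp13, with log2 differences of -0.63 at 3 h and -0.96 at 6 h, and of Fap, with -0.54 at 6 h.

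Markers of other cell types were measured over the same hours, and list means below are over arrays from 1 to 10 h. Of 5 cholangiocyte markers, 1, 3, 3 and 2 were called higher at 1, 3, 6 and 10 h and none lower. Sox9 had differences of 1.13, 0.47, 0.43 and 0.004 at these times. Krt7, a keratin of bile duct epithelium, rose by 0.61, 1.17 and 0.93 at 3, 6 and 10 h, Krt19, another one, had differences of -0.19, -0.25 and -0.25, and the cholangiocyte list's mean level ran from 7.63 to 7.86 in treated arrays and from 7.35 to 7.56 in untreated arrays. Of 8 hepatocyte and hepatoma markers, 1, 2, 3 and 3 were called lower at the 4 times and 1 was called higher, Apoa1 at 3 h (0.48). Those called lower were Afp (-0.19, -0.25, -0.46 and -0.53 at 1, 3, 6 and 10 h), Fgb (-0.66, -0.78 and -1.09 at 3, 6 and 10 h) and Alb (-0.39 and -0.49 at 6 and 10 h). The hepatocyte and hepatoma list's mean level ran from 7.43 to 7.62 in treated arrays and from 7.47 to 7.85 in untreated arrays. Endothelial markers had mean levels from 3.69 to 4.04 in treated arrays and from 3.86 to 4.06 in untreated arrays, and macrophage markers from 5.39 to 5.59 in treated arrays and from 5.40 to 5.61 in untreated arrays. Of the 8 macrophage markers, Cd14 rose at 1, 3 and 6 h (0.40, 0.71 and 0.35). Their part in the matrix results was not tested.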

How the data were processed

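The deposited log2 values, 1 for each of 45037 probe sets on each array, were made by the authors with RMA, per the submitters' processing notes. Its version and the chip description are not given in the sources used. GEO's platform annotation paired 34945 probe sets with 1 gene, 932 with several and 9160 with none, and only the first kind was used. Symbols were updated to RefSeq names of GRCm38.p6, where 162 genes were not found.

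A model with 1 mean for each of the 10 groups of 2 arrays was fitted to all 20 arrays with limma 3.58.1 in R 4.3.3, with moderated variances that follow the mean level and 10 residual degrees of freedom. Benjamini-Hochberg adjustment covered all 18193 genes of a comparison, with a threshold of 0.05. P-values measure the spread between biological duplicates. Differences had a median standard error of 0.14 for the 43 measured members and 0.13 for all genes. Errors with ± are standard errors. The fit was tested on simulated data.

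Full values were given for members called at 1, 3, 6 or 10 h or changed by at least 1 log2 unit from 0 h. From each list of other genes, up to 3 called genes with the lowest adjusted p at each time were named, with their other called times. The called falls among matrix-degrading enzymes were named as well. The members and lists were chosen with earlier results of these data known. Alternatives were other normalizations, probe set choices, filters, variance models and arrays; the second probe set and the alternatives for differences between times and for treated courses were chosen after seeing the data. Same-numbered duplicates did not deviate together (correlations from -0.06 to 0.09), so numbers were not taken as pairs.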

Additional observations from a re-analysis of the deposited data

Results flagged for a closer look

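The effect of TGFβ1, treated minus untreated, differed between times for 10 members by limma's test of that difference, with adjusted p under 0.05 over all genes; 6.41%, 4.55%, 2.44% and 4.02% of all genes passed for 3 against 1 h, 6 against 3 h, 10 against 6 h and 10 against 1 h. Groups of 2 arrays could not be searched for outlying arrays.

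From 1 to 3 h the effect grew by 1.18 log2 units for Col1a1 and 0.70 for Thbs1 and changed by -0.62 for Nid1. From 3 to 6 h it grew by 0.74 for Lamb3 and 0.27 for Fn1. From 6 to 10 h it grew by 0.45 for Col4a1 and changed by -0.41 for Thbs1, -0.47 for Tgfbi and -0.47 for Tgm2. From 1 to 10 h it grew by 0.58 for Col4a1, 0.97 for Lamb1, 1.45 for Lamb3, 0.57 for Fn1, 0.39 for Sparc and 0.43 for Thbs1.

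Of these, the changes of Nid1, Fn1 from 3 to 6 h, Tgfbi and Sparc were lost without some single arrays: 4 of 8 arrays for Nid1 (values from -0.79 to -0.45), 7 for Fn1 (0.20 to 0.34), 5 for Tgfbi (-0.54 to -0.40) and 2 for Sparc (0.31 to 0.46). Lamb3 from 3 to 6 h was lost without 1, replicate 2 of the treated 3 h cells (0.61).

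With the mean of a gene's probe sets, the growth from 1 to 10 h was 0.04 for Fn1 (adjusted p = 0.9464) and 0.15 for Sparc (adjusted p = 0.5316), neither called; the other Fn1 probe set was higher by 0.92 at 1 h and by 0.43 at 10 h. In the same setting the changes of Nid1 (-0.31), Fn1 from 3 to 6 h (0.12), Col4a1 from 6 to 10 h (0.28) and Tgfbi (-0.37) were lost too. The change of Tgm2 was lost without a variance trend (adjusted p = 0.07962), as were those of Nid1, Fn1 from 3 to 6 h, Tgfbi and Sparc. Fn1 from 3 to 6 h was also lost with further quantile normalization.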

How the results depend on the processing

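Of the 27 member calls between treated and untreated cells, 16 held under every alternative normalization, probe set average, filter, variance model and left-out array that was tried for them: Col1a1 at 3 and 6 h, Lamb1 and Thbs1 at 3, 6 and 10 h, Tgm2 at 3 and 6 h, Lamb3 and Fn1 at 6 and 10 h, and Col4a1 and Tgfbi at 10 h. The filter for genes above the median level removed Col1a1, so its calls were not tried there. For the 11 that were lost under at least 1, the cause was not tested. Of 23 calls with a second probe set, 16 were called there too, 4 were not, and 3 turned sign: Nid1 at 3 h (0.049), Lox at 3 h (0.045) and Lamc1 at 6 h (0.066).

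The count of members called at 1 h was 2 with the mean of probe sets, with genes above the median level and with a replicate block, and 0 without any 1 array. Leaving out 1 array gave 6 to 7 members at 3 h, 6 to 9 at 6 h and 7 to 9 at 10 h. With treated 6 h cells set against untreated 0 h cells instead of untreated 6 h cells, 13 members were called. Over all genes, 635, 4298 and 5090 were called for treated cells at 1, 6 and 10 h against untreated 0 h cells. That comparison adds the change of untreated cells with time. At 10 h, 1099 were called without a variance trend and 833 to 1112 without 1 array (1662 with all arrays), with 833 without replicate 1 of the treated cells and 916 and 949 without replicate 1 or 2 of the untreated cells. Without 1 array, all-gene counts were 325 to 351 at 1 h, 1975 to 2103 at 3 h and 2046 to 2250 at 6 h.

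For untreated cells against 0 h, leaving out 1 array gave 0 to 0 members at 1 h, 0 to 1 at 3 h, 1 to 5 at 6 h and 5 to 8 at 10 h; for treated cells, 0 to 1 at 1 h, 5 to 8 at 3 h, 10 to 12 at 6 h and 10 to 12 at 10 h. Replicate numbers were not taken as pairs, and with a replicate block 2, 9, 8 and 10 members were called at 1, 3, 6 and 10 h, with no call of the 27 lost. Genes below the array medians may be near background, and levels of detection are unknown.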
